A study of Mus musculus with 9 samples.

Results

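Immediate early genes and the inducible HSP70 genes were followed across control fetal mouse gonads and testis with the testis-determining gene Sox9 deleted. The set held 10 genes chosen by name: Fos, Jun, Junb, Egr1, Ier2, Atf3, Dusp1, Nr4a1, Hspa1a and Hspa1b. Of these, 7 were among the 15300 genes of the authors' deposited tables, and the other 3, Fos, Junb and Atf3, were not analysed here. RNA sequencing was used on gonads of C57BL/6 fetuses at E13.5, a stage soon after sex determination, freed of the mesonephros and snap frozen, with 3 samples in each of 3 groups. The XX-WT group was control ovary with the genotype XX Sox9flox/flox, and the XY-WT group was control testis with the genotype XY Sox9flox/flox. The XY-KO group was testis with the genotype XY AMH-Cre; Sox9flox/flox, in which Cre is driven by the AMH promoter, active in Sertoli cells. Floxed Sox9 alleles were thus carried by all 3 groups, and Cre by XY-KO alone, so that Cre itself and the loss of Sox9 cannot be told apart. Nothing in the labels tells single fetuses from pools, and p-values measure only the spread between these samples.

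Immediate early genes are transcribed within minutes of a signal, from factors already present in the cell and with no need for new protein. Growth factors, calcium, hormones and handling of tissue are known to induce them through MAP kinases, serum response factor and CREB. Most of their products are transcription factors (the AP-1 subunits FOS, JUN, JUNB and ATF3, the zinc finger factor EGR1, the orphan nuclear receptor NR4A1) or feedback regulators such as the phosphatase DUSP1. Hspa1a and Hspa1b encode the stress-inducible HSP70 chaperones, which bind unfolded protein and are switched on by heat shock factor HSF1. In steroid-producing cells, NR4A1 is known as a factor that binds promoters of steroidogenic genes.

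The promoter windows are shown because the HSP70 pair and Jun share a short motif made of heat shock element units. Nr4a1 and Dusp1 carry exact matches to CREB-type motifs. Each window runs from 250 bases before to 50 bases after the gene's start in RefSeq on GRCm38.p6. It is written 5′ to 3′ on the gene's own strand. For Nr4a1 and Dusp1 that start lies inside the longer GENCODE M21 span given below. Of the 7 measured genes, 5 matched an entry, and Egr1 and Ier2 have no window here. In the first 3 windows the capitals mark GAANNTTC, a single pair of heat shock element units set head to head, and CCAAT, read on either strand.
Hspa1a, chr17:34972107-34972406, minus strand: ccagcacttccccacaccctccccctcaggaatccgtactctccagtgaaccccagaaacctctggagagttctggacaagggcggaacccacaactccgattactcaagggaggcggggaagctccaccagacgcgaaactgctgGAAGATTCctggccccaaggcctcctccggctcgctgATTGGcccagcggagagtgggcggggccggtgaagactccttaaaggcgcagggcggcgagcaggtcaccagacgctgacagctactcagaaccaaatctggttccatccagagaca
Hspa1b, chr17:34959189-34959488, minus strand: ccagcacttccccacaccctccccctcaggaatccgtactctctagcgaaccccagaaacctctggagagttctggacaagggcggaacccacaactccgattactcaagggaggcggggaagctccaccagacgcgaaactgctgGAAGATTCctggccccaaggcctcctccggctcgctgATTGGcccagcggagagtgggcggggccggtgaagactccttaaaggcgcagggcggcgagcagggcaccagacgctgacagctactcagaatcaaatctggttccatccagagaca
Jun, chr4:95052173-95052472, minus strand: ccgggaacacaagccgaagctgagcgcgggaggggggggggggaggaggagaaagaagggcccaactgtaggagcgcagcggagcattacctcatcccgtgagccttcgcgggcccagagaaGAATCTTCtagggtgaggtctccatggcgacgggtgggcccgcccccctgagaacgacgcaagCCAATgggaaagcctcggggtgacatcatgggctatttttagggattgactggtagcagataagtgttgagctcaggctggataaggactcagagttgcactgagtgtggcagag
In the next 2 windows the capitals mark TGACG, the half-site of the cyclic AMP response element (CRE), on either strand.
Nr4a1, chr15:101266596-101266895, plus strand: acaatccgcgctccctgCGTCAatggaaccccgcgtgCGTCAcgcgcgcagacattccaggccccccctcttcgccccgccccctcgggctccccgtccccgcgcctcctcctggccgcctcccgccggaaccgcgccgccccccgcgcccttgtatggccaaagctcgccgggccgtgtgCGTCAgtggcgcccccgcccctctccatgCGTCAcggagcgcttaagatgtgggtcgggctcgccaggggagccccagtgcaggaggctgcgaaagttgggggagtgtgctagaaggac
Dusp1, chr17:26508423-26508722, minus strand: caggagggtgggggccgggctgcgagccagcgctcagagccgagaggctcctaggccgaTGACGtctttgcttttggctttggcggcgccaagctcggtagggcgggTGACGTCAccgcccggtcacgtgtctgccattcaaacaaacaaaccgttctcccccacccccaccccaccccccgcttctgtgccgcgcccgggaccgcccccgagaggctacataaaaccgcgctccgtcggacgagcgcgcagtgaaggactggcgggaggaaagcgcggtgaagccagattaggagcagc

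The Hspa1a and Hspa1b windows differed at 4 positions, C44T, T47C, T249G and C276T, counted from 1 at the window's 5′ end with the Hspa1a base first. Both held GAANNTTC starting 104 bases upstream of the start and CCAAT starting 67 bases upstream. In Jun, the same motifs started 128 and 65 bases upstream. GAANNTTC was present in 7.86% and CCAAT in 37.4% of all 32851 windows of this length searched on both strands. The Nr4a1 window held 4 CRE half-sites, starting 233, 213, 69 and 40 bases upstream. In Dusp1 there were 3, starting 191, 143 and 140 bases upstream, and the last pair overlap in the full element TGACGTCA. TGACG was found in 20.8% and TGACGTCA in 1.79% of all windows. Only exact matches were sought, so near matches to TGACGTCA, such as tgacatca in the Jun window, are not marked. No match to the tail-to-tail pair of heat shock element units TTCNNGAA (8.52% of windows), the AP-1 site TGANTCA (7.81%), TATAAA (13.6%) or the CArG box bound by serum response factor (1.63%) was found in these 5 windows. These matches describe letters in a window, were not tested for binding, and were not sought in Egr1 and Ier2.

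Several of the 7 measured genes have a simple structure. In the longest transcript of GENCODE M21, 4 of the 7 had a single exon (Jun, Ier2, Hspa1a and Hspa1b), a share of 57.1% against 8.38% of all genes of the tables found there. Their median GC content was 57.3% against 49% for all genes, and their median exonic length was 3.19 kb against 4.25 kb, with Egr1 above the latter at 4.48 kb. Mean expression was below the median of all genes for 5 of the 7. Reads of the HSP70 pair are hard to assign: of 2818 stretches of 150 bases, the read length, in the Hspa1a transcript, 1074 (38.1%) occurred identically in Hspa1b, and 2.98% in the relative Hspa1l. How reads with several matches were counted is not given in the sources used here, so values of Hspa1a and Hspa1b are uncertain as separate genes and are best read as those of 1 locus. Hspa1a also shares 564 exonic bases (19% of its length) with the antisense gene Gm20481, which was not analysed here. Jun shares 232 exonic bases (7.28%) with the antisense gene Junos, which was not called in any comparison (log2 -0.48, adjusted p 0.430 by limma, XX-WT minus XY-WT, in the authors' deposited table). The strand setting of the counting is not given in the sources used here.

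The values come from 3 deposited tables of the authors' limma comparisons, each over the same 15300 genes; values of single samples were not used here, so whether groups overlap and how deep each library was are unknown. A gene is called where the authors' Benjamini-Hochberg adjusted p is under 0.05. By this rule the authors' deposited tables called 23.3% of genes between XX-WT and XY-WT (12.4% lower in XX-WT), 2.27% between XY-KO and XY-WT, and 18.3% between XY-KO and XX-WT (9.16% higher in XY-KO). The targeted gene bore out the labels: Sox9 was lower in XY-KO than in XY-WT by a log2 change of -2.76 (SE 0.172, adjusted p 8.93e-07 by limma, the authors' deposited table). Its target Amh changed by -2.06 in the same table, and the X-inactivation transcript Xist was higher in XX-WT than in XY-WT by 9.62. The ovarian genes Fst and Foxl2 were higher in XX-WT than in XY-WT by 7.27 and 4.37. Sox9 RNA in XY-KO was still above that in XX-WT, by 1.71 (adjusted p 8.14e-05 by limma, the authors' deposited table).

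Group levels below were derived from the authors' mean log2 expression and fold changes with equal weight for the groups, in log2 CPM (reads of a gene per fixed library size), and carry no error of their own. Per kb of exon, Jun and Egr1 stood highest in the control testis, at 7.65 and 4.41 CPM per kb. Hspa1b followed at 2.72, then Nr4a1 at 1.70, Dusp1 at 1.67, Hspa1a at 1.5 and Ier2 at 1.36 CPM per kb. In the control ovary, Jun still led at 4.88 CPM per kb, followed by Egr1 at 1.89 and Dusp1 at 1.82. Ier2 stood at 0.726 CPM per kb there, above Nr4a1 at 0.327, Hspa1b at 0.278 and Hspa1a at 0.259. The Sox9-deleted testis ranged from 4.96 CPM per kb for Jun and 4.53 for Egr1 to 0.570 for Ier2. The HSP70 pair and Nr4a1 thus stood between Egr1 and Ier2 in the control testis and last in the control ovary, and these orders between genes were not tested.

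**Figure D1:**
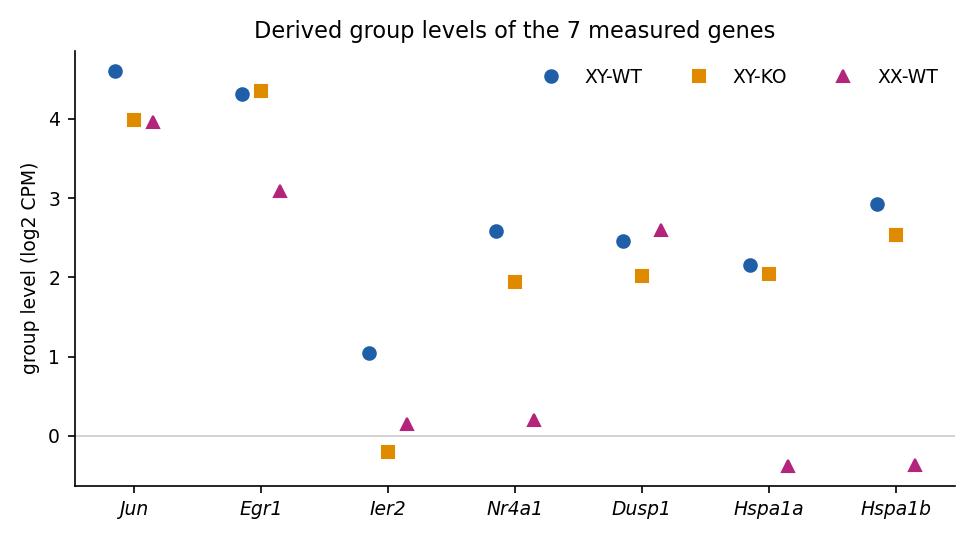
Derived level of each of the 7 measured genes (y axis, log2 CPM) in control testis (XY-WT, circles), Sox9-deleted testis (XY-KO, squares) and control ovary (XX-WT, triangles), each point standing for 1 group of 3 samples with no error bar because single samples were not used. Egr1, Nr4a1, Hspa1a and Hspa1b show the triangle well below both other symbols, whereas the 3 symbols of Dusp1 lie between 2.02 and 2.59.

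The first comparison asked how these genes differ between the control ovary and the control testis. Of the 7 measured genes, 5 were lower in the ovary by the authors' limma test, 0 were higher, and Ier2 and Dusp1 were not called. That is 71.4% of the 7, above the 12.4% of all genes called lower; the genes were chosen with earlier results known, and the share was not tested. The largest differences belonged to the HSP70 pair and Nr4a1, and the smallest called one to Jun. The median log2 difference of the 7 was -1.22 in the authors' deposited table, against 0.00 for all genes.

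Among the transcription factors, Nr4a1, the orphan nuclear receptor, differed most. Nr4a1 (ENSMUSG00000023034, chr15:101254269-101274795, plus strand, GRCm38, 8 exons in its longest transcript) stood at 5.98 CPM in XY-WT, 3.85 CPM in XY-KO and 1.15 CPM in XX-WT. The ovary was the low group, by a log2 difference of -2.38 (SE 0.329, 95% interval -3.08 to -1.68, 5.21-fold lower, adjusted p 6.56e-05 by limma, the authors' deposited table). It ranked 279 from the lowest of the 15300 genes in that comparison. The related receptor gene Nr4a2, looked up after its values were seen, did not follow: its log2 difference was -0.02 (adjusted p 0.971), per the authors' deposited table.

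Egr1, a zinc finger factor downstream of serum response factor, was also lowest in the ovary. Egr1 (ENSMUSG00000038418, 2 exons) was at 19.8 CPM in XY-WT, 20.3 CPM in XY-KO and 8.50 CPM in XX-WT. Both testis groups were high and the ovary was low, 2.33-fold below XY-WT (95% interval 1.69 to 3.22) in the authors' deposited table. The log2 difference there was -1.22 (SE 0.218, adjusted p 0.000706 by limma).

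Jun, the AP-1 subunit that pairs with FOS proteins, was the highest of the 7 genes per kb in every group. Jun (ENSMUSG00000052684, chr4:95049034-95052222, minus strand, GRCm38, 1 exon) stood at 24.4 CPM in XY-WT, 15.8 CPM in XY-KO and 15.6 CPM in XX-WT. By level the control testis stood highest, and the other groups were nearly the same. XY-KO was not called against XY-WT, however (adjusted p 0.0944 by limma, the authors' deposited table). The ovary was 1.57-fold lower than the control testis (log2 -0.65, SE 0.183, 95% interval -1.04 to -0.26, adjusted p 0.0174 by limma, the authors' deposited table). Once the dependence of fold changes on GC content and transcript length was removed, the difference was -0.47 and the call was lost (adjusted p 0.0823).

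The feedback and signalling members gave no call. Dusp1, a phosphatase that switches off MAP kinases (ENSMUSG00000024190, chr17:26505590-26562128, minus strand, GRCm38, 3 exons), was at 5.51 CPM in XY-WT, 4.05 CPM in XY-KO and 6.03 CPM in XX-WT. Its level was highest in the ovary, and the authors' deposited table gave a log2 difference from XY-WT of 0.13 (SE 0.257, 95% interval -0.42 to 0.68, adjusted p 0.760 by limma). Ier2, an early gene whose product is a nuclear regulator of transcription (ENSMUSG00000053560, chr8:84661331-84662852, minus strand, GRCm38, 1 exon), had the lowest mean expression of the 7. It stood at 2.07 CPM in XY-WT, 0.868 CPM in XY-KO and 1.10 CPM in XX-WT. The ovary differed from the control testis by -0.91 in log2 (SE 0.390, 95% interval -1.74 to -0.08, adjusted p 0.108 by limma) in the authors' deposited table, so that the interval lay below 0 but the gene was not called.

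The HSP70 chaperone genes had the largest differences of the 7. Hspa1b (ENSMUSG00000090877, chr17:34956436-34959238, minus strand, GRCm38, 1 exon) stood at 7.62 CPM in XY-WT, 5.78 CPM in XY-KO and 0.778 CPM in XX-WT. Its neighbour Hspa1a (ENSMUSG00000091971, chr17:34969190-34972156, minus strand, GRCm38, 1 exon) stood at 4.45 CPM in XY-WT, 4.10 CPM in XY-KO and 0.769 CPM in XX-WT. Both testis groups were high and the ovary was low for each copy. Hspa1b was 9.79-fold lower in XX-WT than in XY-WT (95% interval 5.36 to 17.9, log2 -3.29, SE 0.409, adjusted p 2.37e-05 by limma), a place of 143 from the bottom of the 15300 genes in the authors' deposited table. Hspa1a was 5.79-fold lower (95% interval 3.48 to 9.65, log2 -2.53, SE 0.346, adjusted p 5.88e-05 by limma, the same table). At such low ovary levels a fold leans on the constant put in before the log, which is not given in the sources used here.

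**Figure D2:**
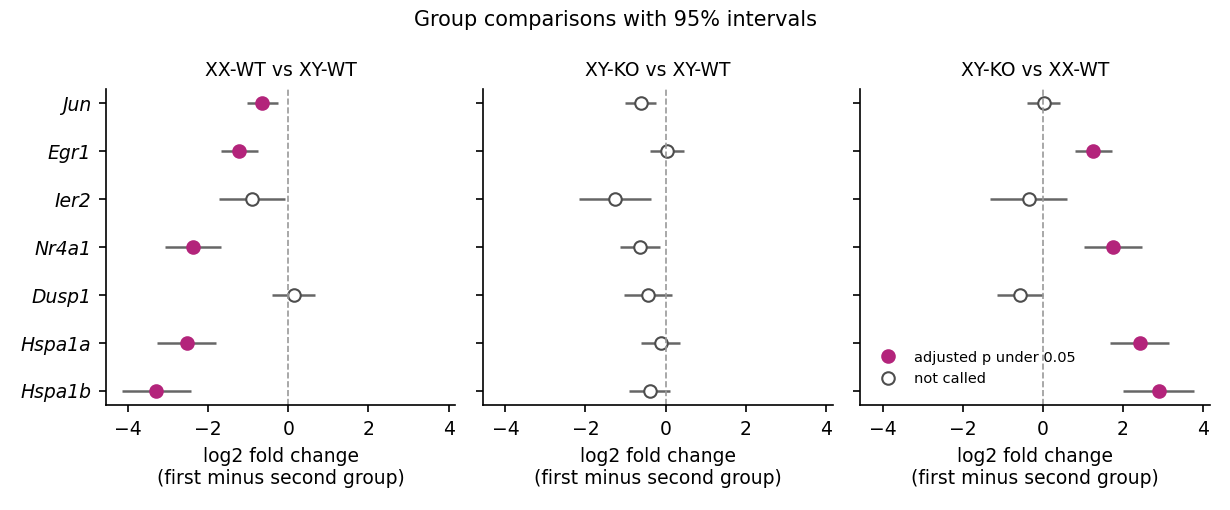
Log2 fold change of the 7 measured genes (x axis, first group minus second) in the 3 comparisons, with 95% intervals as bars; filled points have an adjusted p under 0.05 by the authors' limma test and open points do not. The left panel has 5 filled points below 0, the middle panel has 0 filled points, and the right panel has 4 filled points above 0.

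The second comparison asked what deleting Sox9 in Sertoli cells did to these genes. None of the 7 was called between XY-KO and XY-WT by limma with adjustment over all genes, where 2.27% of all genes were called; at an unadjusted p under 0.05 there were 3 of 7 (Jun, Ier2 and Nr4a1), against 18.9% of all genes. The median log2 difference of the 7 was -0.44, against -0.01 for all genes, in the authors' deposited table. A gene that is not called here is not shown to be equal in both groups, so the intervals are given.

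For Egr1 the interval was centred near 0: the log2 difference XY-KO minus XY-WT was 0.04 (95% interval -0.38 to 0.46, adjusted p 0.939 by limma, the authors' deposited table). For the HSP70 genes, the authors' deposited table gave -0.12 for Hspa1a (95% interval -0.60 to 0.36, adjusted p 0.822) and -0.40 for Hspa1b (95% interval -0.91 to 0.12, adjusted p 0.394). Between ovary and control testis, which shares the XY-WT samples, the same genes differed by -2.53 and -3.29. The sign of Hspa1a turned to 0.21 when the GC and length trend was removed.

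The other 4 genes also had lower values in XY-KO than in XY-WT, with no call. Ier2 differed most, by -1.25 (SE 0.424, 95% interval -2.16 to -0.35, unadjusted p 0.00963, adjusted p 0.135 by limma, the authors' deposited table). Nr4a1 differed by -0.64 (95% interval -1.14 to -0.14, unadjusted p 0.0161, adjusted p 0.165 by limma) and Dusp1 by -0.44 (95% interval -1.04 to 0.15, adjusted p 0.414), both from the authors' deposited table. Jun came nearest to the threshold: its log2 difference was -0.62 (SE 0.186, 95% interval -1.02 to -0.23, unadjusted p 0.00422, adjusted p 0.0944 by limma, the authors' deposited table). With p-values of the 3 comparisons adjusted together, Jun passed in XY-KO against XY-WT (adjusted p 0.0337). At the 7 genes the GC and length trend ran downwards, from -0.19 at Dusp1 to -0.42 at Ier2. It was fitted on genes with at least the median expression, and 5 of the 7 lie below that. For these 5, all but Jun and Egr1, the trend is carried over from more highly expressed genes. With that trend removed, the differences were -0.40 for Jun, -0.84 for Ier2, -0.38 for Nr4a1, -0.26 for Dusp1 and -0.09 for Hspa1b, with adjusted p from 0.334 to 0.902 over these genes.

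The third comparison set the Sox9-deleted testis against the control ovary. Of the 7 measured genes, 4 were higher in XY-KO and 0 were lower by the authors' limma test, against 9.16% of all genes called higher. These 4 were Egr1, Nr4a1, Hspa1a and Hspa1b. The comparison shares its XX-WT samples with the first and its XY-KO samples with the second, and is not independent of them. Hspa1b was 7.43-fold higher (95% interval 4.04 to 13.7, log2 2.89, adjusted p 0.000117 by limma, the authors' deposited table). Hspa1a was 5.34-fold higher (95% interval 3.21 to 8.88, log2 2.42, adjusted p 0.000118). For Nr4a1 the fold was 3.35 (95% interval 2.03 to 5.53, adjusted p 0.00166) and for Egr1 it was 2.39 (95% interval 1.73 to 3.30, adjusted p 0.000638), per the authors' deposited table.

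Jun had no call in that comparison: its log2 difference was 0.02 (SE 0.191, 95% interval -0.38 to 0.43, adjusted p 0.95 by limma, the authors' deposited table). Ier2 differed by -0.35 (95% interval -1.31 to 0.62, adjusted p 0.670) and Dusp1 by -0.57 (95% interval from -1.14 to just under 0, unadjusted p 0.0491, adjusted p 0.167), per the authors' deposited table. Ier2 and Dusp1 had no call in any of the 3 comparisons.

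**Figure D3:**
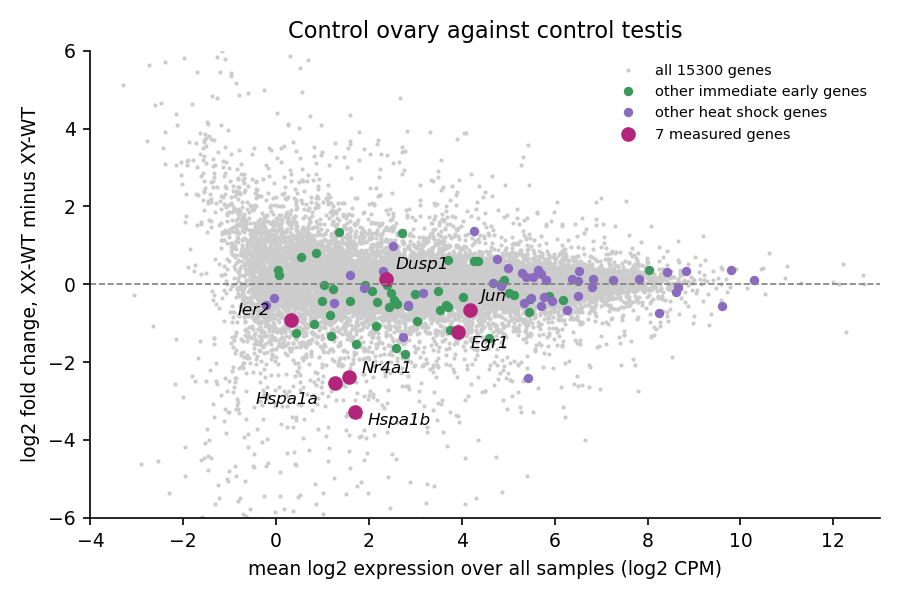
Log2 fold change of control ovary minus control testis (y axis) against mean log2 expression over all samples (x axis, log2 CPM) for the 15300 genes (grey), the other immediate early genes, the other heat shock genes and the 7 measured genes (large points). Nr4a1, Hspa1a and Hspa1b lie between -2.38 and -3.29 at low mean expression, while most other heat shock genes lie near 0 at higher expression; 32 genes fall outside the range drawn.

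The wider immediate early list, written by hand for this purpose, held 59 other genes, of which 49 were in the tables. Between ovary and control testis, 15 were lower in the ovary and 5 were higher by the authors' limma test, 40.8% of the 49 against 23.3% of all genes. Once corrected for GC and length, the split was 10 lower and 7 higher. The median log2 difference of the 49 was -0.32 (all genes 0.00). Lower in the ovary were Fosl2, a FOS-family partner of JUN (log2 -1.37, adjusted p 1.12e-05), Dusp4, a nuclear MAP kinase phosphatase (-1.80, adjusted p 2.73e-05), and Bhlhe40, a helix-loop-helix repressor (-1.65, adjusted p 5.31e-05), in the authors' deposited table. Higher there were the kinase gene Pim1 (1.32, adjusted p 0.000777), the ERK phosphatase gene Dusp5 (1.36, adjusted p 0.00401) and Errfi1, a feedback inhibitor of the EGF receptor (0.60, adjusted p 0.00815). Phosphatases of one family therefore stood on both sides, with Dusp4 lower, Dusp5 higher and Dusp1 not called.

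After Sox9 deletion, 2 of the 49 were called, both lower in XY-KO than in XY-WT, a share of 4.08% against 2.27% of all genes. They were Trib1, a pseudokinase that scaffolds protein degradation (log2 -0.94, SE 0.201, adjusted p 0.0216 by limma), and Zfp36l2, an RNA-binding protein that promotes mRNA decay (-0.48, SE 0.120, adjusted p 0.0471, the authors' deposited table). Neither was called with the GC and length trend removed. Between XY-KO and XX-WT, 9 of the 49 were higher and 6 lower, 30.6% against 18.3% of all genes, with a median of 0.15. The higher ones included Fosl2 (1.54, adjusted p 4.62e-06), Bhlhe40 (1.5, adjusted p 0.000168) and Dusp4 (1.26, adjusted p 0.00113). The lower ones included Pim1 (-1.27, adjusted p 0.000955), Errfi1 (-0.75, adjusted p 0.00216) and Plk2, a polo-like kinase (-0.66, adjusted p 0.00778), all by limma in the authors' deposited table.

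The other heat shock genes were called in both directions. Of 46 listed, 44 were in the tables; 7 were lower and 3 higher in the ovary than in the control testis, 22.7% against 23.3% of all genes, with a median log2 difference of 0.06. Hspa12a, a distant HSP70 relative, was 5.34-fold lower in the ovary (log2 -2.42, SE 0.130, adjusted p 4.87e-09 by limma, the authors' deposited table). Hspb1, a small heat shock protein, changed by -1.36 (adjusted p 0.00316) and Serpinh1, the collagen chaperone of the endoplasmic reticulum, by -0.67 (adjusted p 0.00636). Bag3, a co-chaperone of HSP70 proteins, went the other way and was higher in the ovary by 1.38 (SE 0.182, adjusted p 4.36e-05). Hspb6, another small heat shock protein, was higher there by 0.99 (adjusted p 0.00726), and Hspa4l, an HSP110 relative, by 0.66 (adjusted p 0.00789), per the authors' deposited table.

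Genes that heat shock factor HSF1 is known to induce beside HSP70 were called in both directions or not called. Among them are Hspb1, lower in the ovary, and Bag3, higher in the ovary, as given above. A few more were looked up after their values were seen. Dnajb1, the HSP40 partner of HSP70, differed between ovary and control testis by 0.18 (adjusted p 0.690) and Hsph1 by 0.35 (adjusted p 0.116), per the authors' deposited table. The constitutive HSP70 gene Hspa8 differed by -0.07. How far these genes differ from Hspa1a and Hspa1b was not tested.

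Of the 44 other heat shock genes, 0 were called after Sox9 deletion by limma, and 6 had an unadjusted p under 0.05, against 18.9% of all genes. The most extreme t scores belonged to Hspa5, the chaperone BiP of the endoplasmic reticulum (log2 -0.51, adjusted p 0.167), and Hspb1 (-0.73, adjusted p 0.169), in the authors' deposited table. Between XY-KO and XX-WT, 3 were higher and 4 lower, 15.9% against 18.3% of all genes. Hspa12a (2.62, adjusted p 4.31e-09), the HSP90 co-chaperone gene Fkbp5 (0.56, adjusted p 0.00896) and Hspa13, an HSP70-like gene (0.52, adjusted p 0.0206), were higher in XY-KO. Bag3 (-1.77, adjusted p 6.90e-06), Hsp90aa1, the inducible cytosolic HSP90 (-0.67, adjusted p 0.00396), and Fkbp4, a further HSP90 co-chaperone (-0.52, adjusted p 0.0124), were lower, all in the authors' deposited table.

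The upstream regulators (MAP kinases, serum response factor and its partners, CREB and heat shock factors) had few calls. Of 28 listed, 26 were in the tables, and 2 were lower and 2 higher in the ovary than in the control testis, 15.4% against 23.3% of all genes; without the GC and length trend, 2 were lower and 1 higher. Nab2, a corepressor of EGR factors that EGR1 itself is known to induce, was lower in the ovary (log2 -0.89, adjusted p 0.00103), as was Map2k1, the ERK kinase MEK1 (-0.43, adjusted p 0.0235). Mapk14, the stress kinase p38 alpha, was higher (0.68, adjusted p 0.00224 by limma, the authors' deposited table). The heat shock factor gene Hsf1, looked up after its values were seen, differed by 0.10 (adjusted p 0.752) in the same table. After Sox9 deletion, 0 of 26 were called by limma, against 2.27% of all genes, and 7 had an unadjusted p under 0.05, against 18.9% of all genes. Nab2 came nearest with -0.64 (adjusted p 0.0573), followed by Map2k1 with -0.42 (adjusted p 0.107), in the authors' deposited table. Between XY-KO and XX-WT, 2 of the 26 were higher and 1 lower, 11.5% against 18.3% of all genes, and without the GC and length trend 2 were higher and 2 lower. Mapk14 was lower (-0.52, adjusted p 0.0168), and Elk4, a partner of serum response factor (0.35, adjusted p 0.0441), and Creb1 (0.37, adjusted p 0.0451) were higher.

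**Figure D4:**
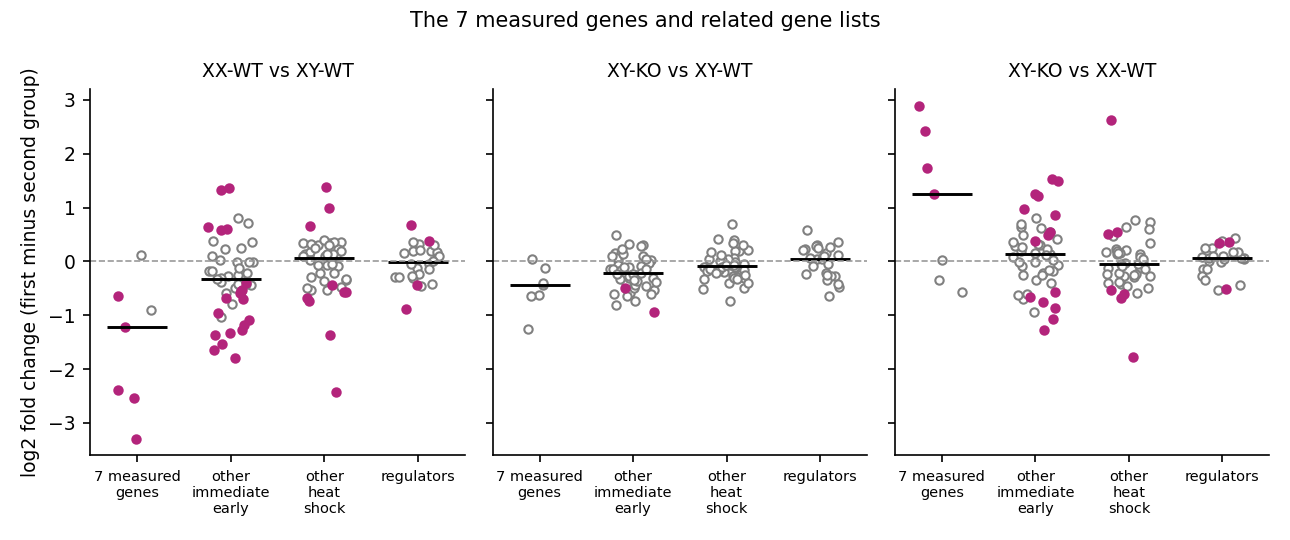
Log2 fold change (y axis, first group minus second) of each of the 7 measured genes, 49 other immediate early genes, 44 other heat shock genes and 26 regulators in the 3 comparisons; filled points have an adjusted p under 0.05 by the authors' limma test, bars are medians, and horizontal jitter is for display. In the left panel the bars lie at -1.22, -0.32, 0.06 and -0.02.

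Genes with the most similar pattern were found by distance in the plane of 2 log2 differences (XX-WT minus XY-WT and XY-KO minus XY-WT) from the median pair of the 7, -1.22 and -0.44, among 13372 genes at least as highly expressed as the lowest of the 7. The nearest were Rtl10 (distance 0.00885), Cdc42se1 (0.0361), Etnk2 (0.0442), Epha2 (0.0443) and Plk3 (0.0448). Each of these 5 was called lower in the ovary, with differences from -1.21 to -1.26 in the authors' deposited table. That direction follows from picking genes near -1.22. Plk3 is also on the wider immediate early list. The 7 genes themselves lay 0.483 to 2.07 from that pair, so the nearest genes resemble their centre more than any of the 7 does. A gene's place in this plane rests on 2 values from 3 groups, and says nothing of shared control.

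Cell types differ between these gonads, and in bulk samples fewer cells of a type and less RNA per cell cannot be told apart. The derived levels of the 7 genes summed to 69.8 CPM in XY-WT, 54.8 CPM in XY-KO and 33.9 CPM in XX-WT. Jun and Egr1 gave 24.4 and 19.8 CPM of the XY-WT sum. Marker sums of fetal Leydig, interstitial, Sertoli and endothelial cells stood in the same order of groups, and the other marker sums did not. The sum over 6 of 7 listed fetal Leydig markers was 745 CPM in XY-WT, 731 CPM in XY-KO and 52.9 CPM in XX-WT. All 6 measured ones were lower in the ovary than in the control testis, 0 were called between XY-KO and XY-WT, and all 6 were higher in XY-KO than in XX-WT, by limma in the authors' deposited tables; Insl3 was not analysed here. Interstitial markers (5 of 5 listed) had the same calls, with sums of 626 CPM, 610 CPM and 260.0 CPM in XY-WT, XY-KO and XX-WT.

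Of 10 Sertoli cell markers, 7 were called lower in XY-KO than in XY-WT, and 6 were called higher and 2 lower in XY-KO than in XX-WT, with a median log2 difference of 2.75 in the last comparison. In the ovary, 8 of the 10 were lower than in the control testis and 1, Wt1, was higher. Their derived levels summed to 813 CPM in XY-WT, 502 CPM in XY-KO and 456 CPM in XX-WT, and Wt1, which ovarian somatic cells also express, stood at 7.79 log2 CPM in XY-KO and 8.45 log2 CPM in XX-WT. The Sertoli marker Amh was at -4.30 log2 CPM in the ovary, and the Leydig marker Cyp11a1 at -0.30 log2 CPM. Pre-granulosa markers summed to 32.7, 42.0 and 364 CPM in XY-WT, XY-KO and XX-WT, germ cell markers to 336, 278 and 504 CPM, and erythroid markers to 458, 402 and 728 CPM. Endothelial marker sums were close in the 3 groups, at 203, 195 and 181 CPM. Single endothelial markers went in both directions, with 3 of 10 called lower and 1 higher in the ovary than in the control testis. That is 40% called, against 23.3% of all genes. Macrophage markers summed to 21.1, 19.7 and 25.2 CPM over 6 of 10 listed genes, with Fcgr1, C1qa, C1qc and Aif1 not analysed here. Mesonephric markers (4 of 6) summed to 14.1, 11.4 and 19.2 CPM and skeletal muscle markers (4 of 7) to 7.77, 10.1 and 10.5 CPM. The mesonephric sums hide calls in both directions. In the ovary, 3 of these 4 were called higher and 1 lower than in the control testis. In XY-KO, 1 was called higher and 3 lower than in XX-WT, and 0 were called against XY-WT. Of the 4 skeletal muscle markers, 1 was called, higher in the ovary than in the control testis. The part of these cell types in the differences of the immediate early and HSP70 genes was not tested.

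**Figure D5:**
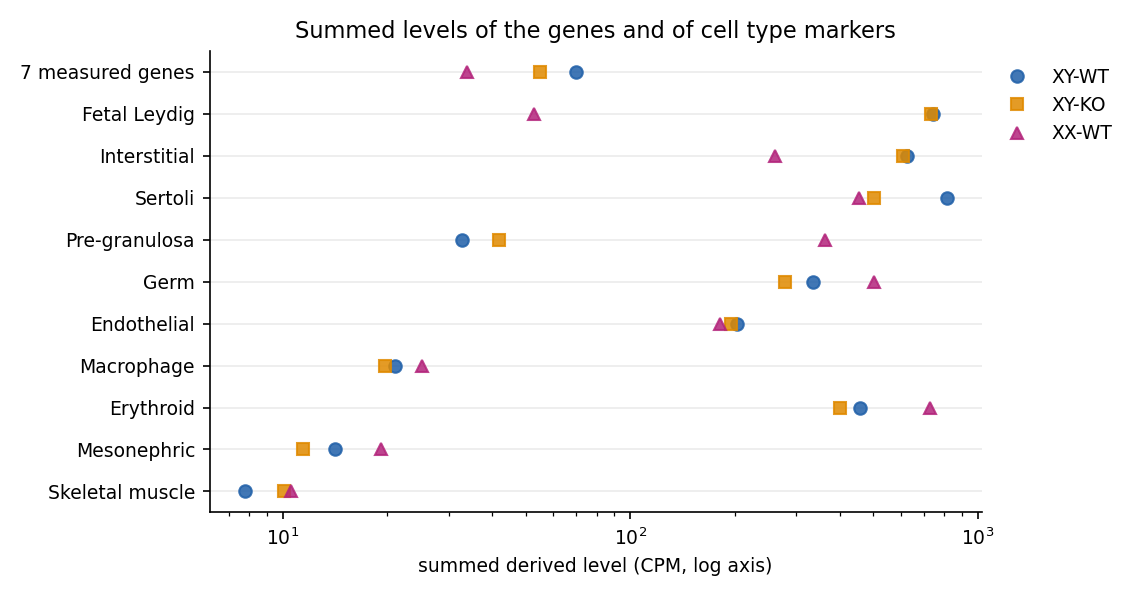
Summed derived level (x axis, CPM, log axis) of the 7 measured genes and of 10 cell type marker lists in control testis (XY-WT), Sox9-deleted testis (XY-KO) and control ovary (XX-WT); each point is 1 group of 3 samples. In the row of the 7 genes the ovary is lowest at 33.9 CPM, in the fetal Leydig row it is lowest at 52.9 CPM with the testis groups overlapping, and in the Sertoli row, where Wt1 makes up much of the ovary's sum, the points stand at 813, 502 and 456 CPM in XY-WT, XY-KO and XX-WT.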

How the data were processed

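The data were RNA sequencing of 9 fetal gonad samples in 3 groups of 3. Per the labels, RNA was column-purified, amplified by the SPIA method and sequenced as pairs of 150 nt reads. The submitters' processing notes name limma 3.24.0, HTSeq 0.6.1p1, TopHat2 2.0.8 and Trimmomatic 0.30, with the GRCm38 genome; filters, offset and strand setting are not given in the sources used here. The authors deposited 3 tables of comparisons with log2 fold changes and mean log2 expression, and, per the file headers, limma scores (moderated t and log-odds), p-values and adjusted p-values. Depth per sample is unknown, so no counting interval was computed.

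Recomputed Benjamini-Hochberg values matched the deposited ones within a relative difference of 0.000769, the 3 fold changes closed within 0.005, and each table's p-values followed from t with 15.27 degrees of freedom. The ratio of fold change to t served as SE, from which 95% intervals were computed. Positions came from GENCODE M21 (15192 of 15300 IDs found). Scripts used Python 3.11.15 with numpy 2.4.6, pandas 2.3.3, scipy 1.17.1, statsmodels 0.14.6 and matplotlib 3.10.9, and were tested on simulated data (R 4.3.3, limma 3.58.1).

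Genes and lists were chosen with earlier results of these data known. Every measured gene of the set is named; from each related list and comparison, up to 3 called genes per direction with the smallest adjusted p, or the 2 with the largest t score in size where none was called. The values of 1 regulator are not reported here. Alternatives were a stricter threshold, a 2-fold limit, highly expressed genes only, joint or Bonferroni adjustment, and removal of the GC and length trend (polynomials of degree 3) or of the median. That trend was fitted on genes with at least the median expression and applied to all.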

Additional observations from a re-analysis of the deposited data

How the results depend on the processing

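Of the single-gene log2 differences under the alternatives, 66 kept direction and side of the threshold. Joint adjustment and the restriction to highly expressed genes leave the log2 difference itself unchanged, so direction could not turn there. With the GC and length trend removed, Hspa1a turned from -0.12 to 0.21 in XY-KO against XY-WT (adjusted p 0.728), and Jun lost its ovary call; Jun gained one in XY-KO against XY-WT with joint adjustment. Of the counts of calls, 54 stayed within 1.5 times the reported one and 33 did not. A stricter threshold, a 2-fold limit and Bonferroni adjustment can only keep or lower a count, so a count of 0 could not move there. For the 7 genes, ovary against control testis gave 2 (of 2 left) over highly expressed genes and 3 with Bonferroni, in place of 5; XY-KO against XY-WT gave 1 with joint adjustment, in place of 0; XY-KO against ovary gave 1 of the 2 highly expressed and 0 with Bonferroni, in place of 4. Highly expressed genes are those with at least the median expression, so fewer enter by construction. For ovary against control testis, the other immediate early genes went from 20 to 12 at adjusted p under 0.01, 10 with a 2-fold limit, 11 over highly expressed genes and 3 with Bonferroni; the other heat shock genes from 10 to 3 with a 2-fold limit and 2 with Bonferroni; the regulators from 4 to 2, and to 0 with either the fold limit or Bonferroni. For XY-KO against XY-WT, the immediate early count of 2 became 0 at 0.01, with the 2-fold limit, with Bonferroni and without the trend, 1 over highly expressed genes or with the median subtracted, and 5 with joint adjustment, which also gave 3 regulators in place of 0. For XY-KO against ovary, the immediate early count of 15 became 9 at 0.01, 6 with the fold limit, 9 over highly expressed genes and 1 with Bonferroni; the heat shock count of 7 became 4, 2 and 2 at 0.01, with the fold limit and with Bonferroni; the regulators went from 3 to 1 with joint adjustment and 0 in those 3 settings. For the remaining settings the cause of the changed counts was not tested. Counting Hspa1a and Hspa1b as 1 locus, chosen after seeing the data, left 4 of 6 lower in the ovary.

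No paired analysis was possible because the tables hold comparisons and no values of single samples; for the same reason no replicate was left out and no depth limit was set. Derived levels assume equal weight for the groups; other weights shift a gene's level in all groups together and leave their order.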

Other observations

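Other genes of the related lists, chosen after their values were seen, are given here by their values. The matricellular growth genes Cyr61 and Ctgf, both known targets of serum response factor and YAP, were lower in the ovary than in the control testis by log2 differences of -1.54 (adjusted p 0.000344 by limma) and -1.08 (adjusted p 0.00355), per the authors' deposited table. Dusp6, the cytoplasmic ERK phosphatase that marks ERK signalling, was lower there by -1.18 (adjusted p 0.000235) and higher in XY-KO than in the ovary by 0.87 (adjusted p 0.00390) in the authors' deposited tables. The clock gene Per1 was lower in the ovary by -0.95 (adjusted p 0.00354) and the factor gene Cebpb by -1.33 (adjusted p 0.0220). These are picked from a list with calls in both directions, 15 lower and 5 higher in the ovary. Klf10 (0.64, adjusted p 0.00961 by limma) and Plk2 (0.59, adjusted p 0.0128) were among the higher ones.

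Genes for proteins of the endoplasmic reticulum, also chosen after their values were seen, were partly called in ovary against control testis. Hspa5 differed by -0.73 (adjusted p 0.0106 by limma), Hsp90b1 by -0.56 (adjusted p 0.0243) and Hspa13 by -0.57 (adjusted p 0.00919), per the authors' deposited table. Co-chaperone genes of the same compartment were not called there: Dnajb11 had a value of -0.47 (adjusted p 0.0693), Dnajc3 of -0.32 (adjusted p 0.0999) and Dnajb9 of 0.41 (adjusted p 0.0512). The cytosolic Hsp90aa1 had a value of 0.36 in that comparison (adjusted p 0.0808) and was not called. Hsph1, a cytosolic HSP110 chaperone, was lower in XY-KO than in the ovary by -0.61 (adjusted p 0.0126), per the authors' deposited table. The cause of these differences was not tested.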
